A study of Mus musculus with 32 samples.

Results

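Excision repair of cisplatin adducts in mouse lung was compared with that in kidney, liver and spleen. The lung is represented by 2 XR-seq libraries, which were chosen by their organ label out of 8 XR-seq libraries and 32 samples in the whole series. The other 6 XR-seq libraries are 2 from kidney, 2 from liver and 2 from spleen. XR-seq sequences the short oligomers that nucleotide excision repair cuts out of damaged DNA, so a read marks a lesion that was being removed when the tissue was taken. Reads on the transcribed strand (TS) of each gene were scaled to the library's total of TS and non-transcribed strand (NTS) reads on genes, and are given as CPM (reads per 1000000 reads of that total).

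All mice were C57BL/6J females of 6 or 7 months. Those used for XR-seq and Damage-seq had received a single intraperitoneal dose of cisplatin, 10 mg per kg. The protocol puts the collection 4 h later, whereas the time label of the samples reads 2 h. No XR-seq library came from an untreated mouse, so a background of excised oligomers without cisplatin was not measured. Damage-seq, which maps adducts that are still in the DNA, was made in 2 libraries per organ, and RNA-seq in 2 libraries per organ from cisplatin-treated mice and 2 from saline-treated controls. The oligomers were pulled down with antibodies against the p89 and p62 subunits of TFIIH, the factor that opens DNA around a lesion, and then with an antibody against the cisplatin adduct. Whole organs were used, so a gene's value is an average over all cells in the organ. Fewer cells of a type and less repair or RNA per cell cannot be told apart.

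Cisplatin crosslinks neighbouring purines, mostly adjacent guanines (GG). Transcription-coupled repair removes such lesions from the TS when RNA polymerase II stalls at them, and global repair acts on both strands. TS repair reads therefore depend on transcription of the gene as well as on its lesions. The lung is built of a thin alveolar epithelium of flat type 1 and surfactant-secreting type 2 cells, conducting airways lined by ciliated and club cells, a dense capillary bed, and fibroblasts and smooth muscle that lay down elastic fibres.

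To show the substrate, 120 bases of the TS are printed for 3 genes that the comparison turns on. Cdh5 encodes the junction protein VE-cadherin of vessels, Slc24a4 a potassium-dependent sodium and calcium exchanger, and Sftpc the surfactant protein C of type 2 cells. The stretches lie in coding exons and come from RefSeq's GRCm38.p6 assembly, at chr8:104142481-104142600, chr12:102239043-102239162 and chr14:70522615-70522734, written 5′ to 3′ along the TS with every GG in capitals.
Cdh5: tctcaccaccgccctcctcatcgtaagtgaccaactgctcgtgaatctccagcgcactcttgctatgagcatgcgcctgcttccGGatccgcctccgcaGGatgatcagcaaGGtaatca
Slc24a4: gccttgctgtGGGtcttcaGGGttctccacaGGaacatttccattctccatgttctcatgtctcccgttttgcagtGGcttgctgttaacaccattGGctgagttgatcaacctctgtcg
Sftpc: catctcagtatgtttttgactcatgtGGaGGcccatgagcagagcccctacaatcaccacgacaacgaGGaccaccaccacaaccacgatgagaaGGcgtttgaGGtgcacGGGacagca
The Cdh5 stretch holds 3 separate runs of adjacent guanines, that of Slc24a4 holds 5 and that of Sftpc holds 6. Lesions can thus form on the TS of all 3 genes, and their repair differed widely in lung. Per 100 GG of the TS, the mean lung level was 3.50 CPM in Cdh5, 2.13 CPM in Slc24a4 and 0.464 CPM in Sftpc.

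Between 10658675 and 59779770 XR-seq reads fell on genes per library, and the lung libraries held 59779770 and 42617016 reads. The TS took 90.0% and 89.7% of these reads in lung and 83.8% to 88.6% in the other organs. Replicates were closest in liver (Pearson's r across genes of log2 TS values 0.984), then in lung (0.971), spleen (0.954) and kidney (0.874). Replicate 1 of 3 organs stood apart by its empty genes. Of 19736 genes tested, 2850 had no TS read in kidney replicate 1, 2143 in spleen replicate 1 and 1182 in lung replicate 1, which is the deepest library of the 8, against 98 to 404 in the other 5 libraries. Counts of calls against the mean, over all genes and over the gene lists below, are therefore also given without replicate 1 of kidney, of lung and of spleen, in that order, and a count of a list printed without them moved by at most 1 gene. Counts against each organ within lists, of the closest organ and of overlaps with RNA were taken with all 8 libraries.

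Of the 19736 genes tested, 1708 (8.65%) had more TS repair reads in lung than the mean of the 3 other organs and 1811 (9.18%) had fewer. The test was edgeR's quasi-likelihood test against a log2 difference of 0.4 (1.32-fold), at a Benjamini-Hochberg adjusted p under 0.05. The shares of 8.65% and 9.18% are the background for the counts of gene lists against the mean below. The mean is taken over log2 levels, so a gene near 0 in 1 organ can pass while its lung level equals that of another organ. A stricter call asked for a difference in the same direction against each organ, and 439 genes (2.22%) were higher and 360 (1.82%) lower in lung by that rule. These genes differed by a median log2 of 2.32 and -2.29. Without replicate 1 of kidney, lung or spleen in turn, the counts against the mean were 2010, 1150 and 1574 higher and 2265, 1118 and 1694 lower. Against each organ they were 539, 287 and 373 higher and 441, 222 and 286 lower. In all 8 fits that left out 1 library, 1064 of the 1708 higher genes, 885 of the 1811 lower genes, 259 of the 439 and 183 of the 360 were called the same way.

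The closest organ of a called gene was the one with the smallest difference from lung in the direction of the call. An organ beyond lung in that direction was counted as closest too. Spleen was closest for 811 of the 1708 higher genes (47.5%) and for 1034 of the 1811 lower genes (57.1%). Kidney was closest for 681 (39.9%) and 454 (25.1%), and liver for 216 (12.6%) and 323 (17.8%). Such shares were not taken over all genes tested.

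Of the genes higher than each organ, the 12 named first are those furthest above the mean of the other organs. Among these, Slc24a4 had 194 and 210 CPM in lung, 7.39 and 6.37 in kidney, 3.32 and 3.90 in liver, and 5.44 and 4.27 in spleen. Its lung level was 41.4-fold the mean of the other organs (log2 5.37 ± 0.12 SE, edgeR adjusted p = 5.02e-10, n = 2 libraries per organ). The gene lies at chr12:102128733-102267091 (mm10). Glp1r, the receptor of the gut hormone GLP-1, had 86.4 and 85.7 CPM in lung against 1.14 to 3.42 CPM elsewhere (log2 5.27 ± 0.21). Tbx5, a T-box transcription factor of the heart and the lung bud, had 44.3 and 40.0 CPM in lung against 0.281 to 1.54 CPM (log2 5.36 ± 0.33). Lung and the other organs did not overlap in any of these genes.

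Bmp5, a bone morphogenetic protein, had 59.5 and 48.2 CPM in lung and 0.519 to 4.85 CPM in the other organs (log2 4.77 ± 0.25). Stmn2, a tubulin-binding protein best known from neurons, had 56.7 and 53.3 CPM in lung and 0 to 2.65 CPM elsewhere (log2 5.89 ± 0.53). Chrm2 encodes the M2 muscarinic receptor, which answers acetylcholine in the heart and in airway muscle. Its TS level was 65.8 and 53.5 CPM in lung and 0 to 7.32 CPM elsewhere (log2 4.98 ± 0.46). Ccdc85a, a coiled-coil protein, had 149 and 145 CPM in lung and 1.27 to 15.7 CPM elsewhere (log2 4.92 ± 0.20). Sox11, a transcription factor of developing tissues, had 16.7 and 20.4 CPM in lung and 0 to 1.97 CPM elsewhere (log2 5.79 ± 0.76). The remaining 4 were Glb1l3, Mettl21e, Tecrl and Ace3, with mean lung TS levels of 0.322, 1.07, 0.278 and 2.70 CPM per 100 GG. Ace3 (chr11:105994675-106005443) starts just downstream of Ace on the same strand (chr11:105967945-105989964), and Ace was itself 9.89-fold higher in lung. RNA of all 12 genes was also higher in lung.

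**Figure D1:**
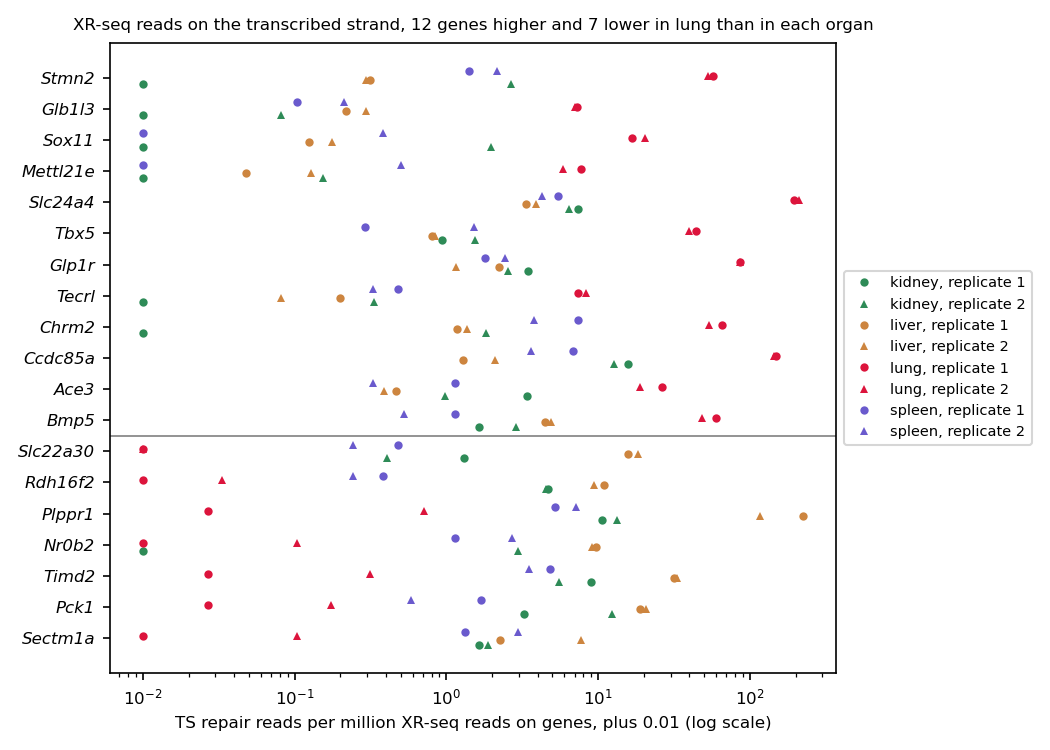
TS repair level of 12 genes higher and 7 genes lower in lung than each organ, in each of the 8 XR-seq libraries. They are among the genes furthest from the mean of the other organs. Values are CPM plus 0.01 on a log axis, with colours for organs. In the upper 12 genes both lung points lie above all 6 others, and in the lower 7 they lie below all 6 others, except in Nr0b2, where kidney replicate 1 is at 0 too.

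Of 22 transcription factors of lung mesoderm and endoderm tested, 8 were higher in lung (9, 7 and 8 without replicate 1 of kidney, lung and spleen) and 3 lower (4, 2 and 3). Tbx4, which acts with Tbx5 in the lung bud, had 34.3 and 33.0 CPM in lung against 0.895 to 4.51 CPM elsewhere (18.9-fold, log2 4.24 ± 0.32). Foxf1, needed for lung mesenchyme and capillaries, had 24.1 and 23.2 CPM in lung against 0.657 to 3.78 CPM (13.9-fold, log2 3.80 ± 0.41). Both were separate from every other library, as was Meox2 with 9.25 and 8.10 CPM in lung and 0 to 2.88 CPM elsewhere. The lower 3 were Sox9, Elf3 and Foxp4, of which only Foxp4 passed against each organ, with 149 and 133 CPM in lung and 257 to 367 CPM elsewhere (log2 -1.09 ± 0.09). Nkx2-1, the endodermal factor that sets the alveolar and airway fate, had 1.69 and 1.67 CPM in lung and 0 to 0.537 CPM elsewhere. Its log2 difference of 2.39 ± 1.10 missed the threshold (edgeR adjusted p = 0.206). Nkx2-1 RNA was 161 and 145 CPM in lung and listed at 0 in the 6 other libraries.

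Endothelial genes had more TS repair in lung almost throughout. Of 22 endothelial markers, 21 were higher in lung against the mean, beside 8.65% of all genes tested, and 17 against each organ, beside 2.22%. Their median log2 difference was 2.57, beside 0.06 over all genes tested. Cdh5 had 104 and 100 CPM in lung, 14.1 and 20.6 in kidney, 11.5 and 9.03 in liver, and 15.2 and 26.3 in spleen. Its lung level was 6.57-fold the mean of the others (log2 2.72 ± 0.19, edgeR adjusted p = 7.99e-07). Vwf, the clotting factor stored in endothelium, had 199 and 216 CPM in lung against 9.96 to 50.0 CPM (10.1-fold). Erg, an ETS factor of endothelial identity, had 196 and 189 CPM in lung against 14.4 to 39.5 CPM (log2 2.86). Pecam1, a junction protein also found on blood cells, was higher against the mean but had 138 and 143 CPM in lung and 177 and 212 CPM in spleen. S1pr1, a receptor for sphingosine-1-phosphate, did not pass, with 7.88 and 8.49 CPM in lung and 2.47 to 10.1 CPM elsewhere (log2 0.55 ± 0.41, edgeR adjusted p = 0.583).

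Summed over the 22 genes, TS repair was 1994 and 2042 CPM in lung and 231 to 753 CPM in the other libraries. RNA of the same genes summed to 7668 and 8330 CPM in lung and 404 to 1260 CPM elsewhere. By RNA all but 1 of the 22 were higher in lung, beside 23.2% of all genes tested by RNA. The count of 21 became 21, 19 and 20 without replicate 1 of kidney, lung and spleen.

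Markers of the lung's own capillaries followed with 7 of 10 higher (9, 5 and 7 without replicate 1 of kidney, lung and spleen), a median log2 of 2.64 and none lower. Car4, the carbonic anhydrase on capillary endothelium, had 16.4 and 22.7 CPM in lung, 14.7 and 10.2 CPM in kidney and 0 to 0.375 CPM in liver and spleen, so that lung lay only slightly above kidney. Tmem100 had 16.1 and 13.7 CPM in lung against 0 to 3.87 CPM elsewhere (log2 3.77 ± 0.84). Prx, a scaffold protein of lung endothelium, had 69.3 and 68.0 CPM in lung against 7.03 to 21.2 CPM and passed against each organ. Ednrb, Fibin and Apln did not pass. The summed capillary level was 207 and 213 CPM in lung and 27.2 to 109 CPM elsewhere.

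**Figure D2:**
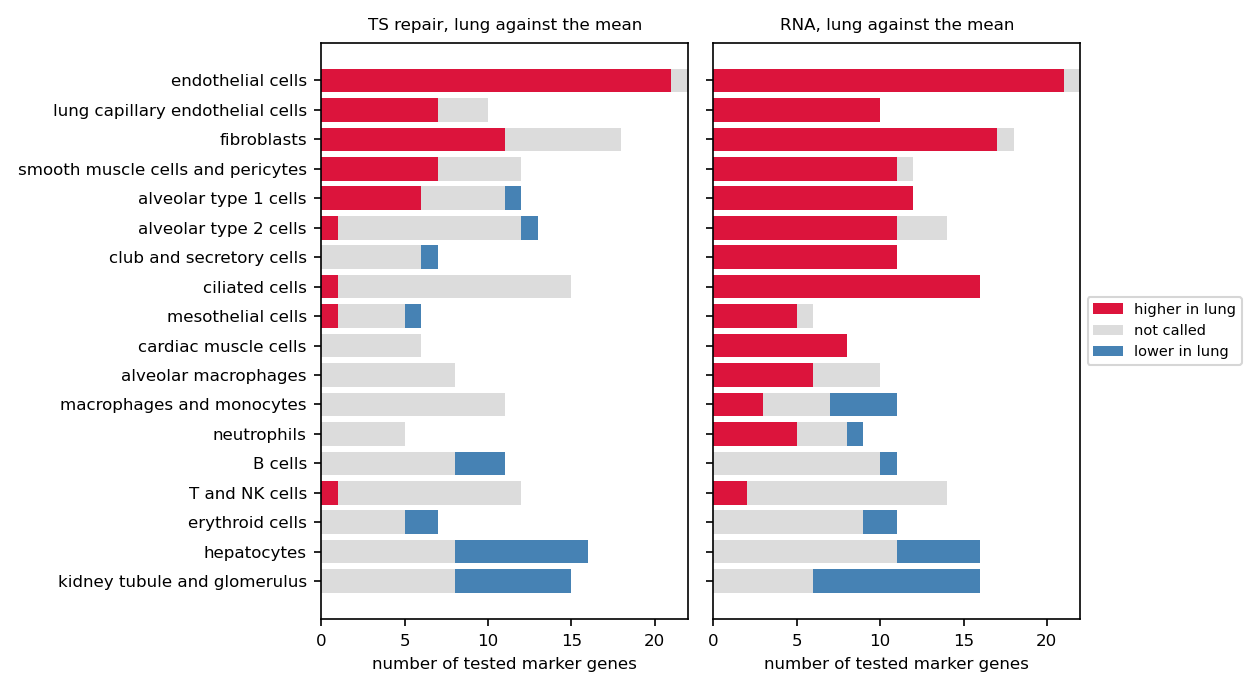
For 18 lists of cell type markers, the number of genes called higher in lung, not called and called lower, by TS repair on the left and by RNA on the right. Endothelial, capillary, fibroblast and smooth muscle markers are mostly higher on both sides, whereas type 2, club and ciliated markers are mostly higher by RNA and mostly not called by TS repair.

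**Figure D3:**
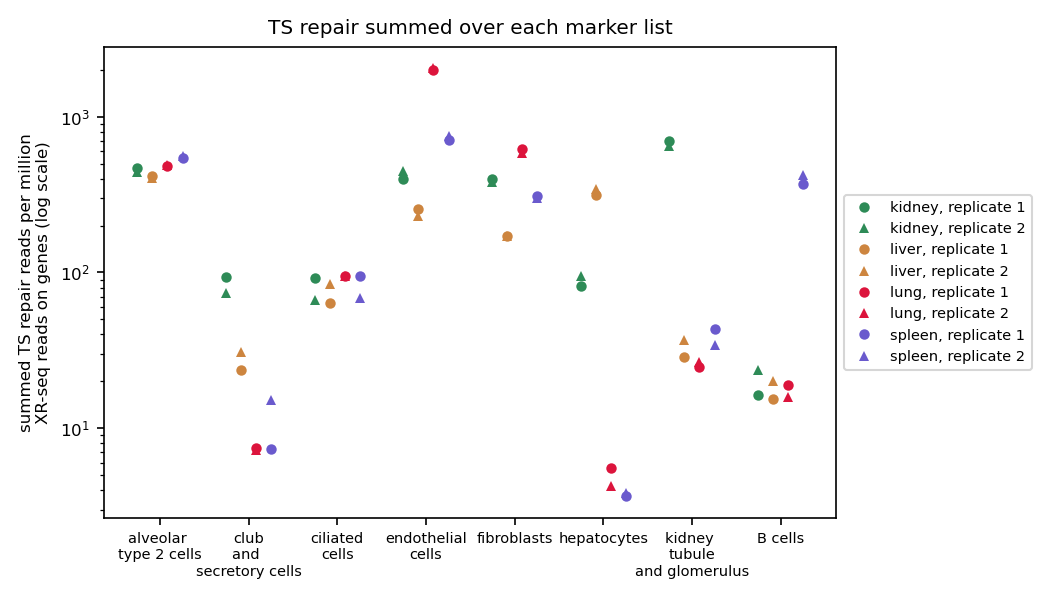
Summed TS repair level (CPM, log axis) of 8 marker lists in each of the 8 XR-seq libraries, with colours for organs and marker shapes for replicates. Both lung libraries lie above all others for endothelial (1994 and 2042 CPM) and fibroblast markers, and within the range of the others for type 2 markers (483 and 492 against 407 to 556 CPM).

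The upstream regions of a pair of endothelial markers are shown, since ETS factors such as Erg bind sequences around GGAAG in endothelial promoters. They are the 250 bases before the RefSeq start of Egfl7, a secreted vessel protein (chr2:26580833-26581082, plus strand), and of Tie1, an angiopoietin co-receptor (chr4:118489850-118490099, minus strand), from GRCm38.p6 with matches to CNGGAAG on either strand in capitals.
Egfl7: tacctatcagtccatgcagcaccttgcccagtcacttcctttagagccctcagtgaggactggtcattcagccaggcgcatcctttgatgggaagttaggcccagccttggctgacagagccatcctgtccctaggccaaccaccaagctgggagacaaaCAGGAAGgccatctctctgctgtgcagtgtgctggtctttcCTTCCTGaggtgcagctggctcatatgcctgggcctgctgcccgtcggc
Tie1: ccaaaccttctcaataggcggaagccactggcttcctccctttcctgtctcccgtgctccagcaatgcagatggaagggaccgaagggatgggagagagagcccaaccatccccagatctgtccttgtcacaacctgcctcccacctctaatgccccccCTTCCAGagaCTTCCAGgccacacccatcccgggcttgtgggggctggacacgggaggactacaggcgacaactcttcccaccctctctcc
Each holds 2 matches, and they were printed because no other endothelial window searched held as many. Egfl7 had 60.9 and 58.8 CPM of TS repair in lung against 7.88 to 14.4 CPM, and Tie1 had 61.3 and 57.5 CPM against 5.35 to 15.9 CPM. The motif was present in 7 of the 12 endothelial markers with such a window (58.3%), in 4 of 10 type 2 markers (40.0%) and in 2 of 11 fibroblast markers (18.2%). Among all 16319 windows of that length 29.5% held it, as did 26.1% of the windows of genes higher in lung than each organ. A match describes these letters and is not a measured binding site.

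Of 17 genes of VEGF, angiopoietin and Tie signalling, 10 were higher, 8 of these against each organ, and 1 was lower. Without replicate 1 of kidney, lung and spleen 12, 8 and 10 were higher and 1, 0 and 1 lower. Flt1, a VEGF receptor, had 329 and 323 CPM in lung against 27.0 to 72.5 CPM (6.42-fold, log2 2.68 ± 0.12). Kdr, the main signalling VEGF receptor, had 58.2 and 64.1 CPM against 5.01 to 20.5 CPM (5.70-fold), and Tek, the angiopoietin receptor, 106 and 117 CPM against 11.2 to 48.6 CPM. Among the listed ligands, Angpt1 passed against each organ (log2 1.68 ± 0.13). Vegfa passed against the mean with 101 and 90.1 CPM in lung, below its 131 and 127 CPM in kidney. Vegfb, Vegfc, Vegfd, Angpt2 and Apln did not pass, and Angptl4, which inhibits lipoprotein lipase, was lower (log2 -1.05 ± 0.25). Pgf, a ligand of Flt1 outside the list, passed against the mean with 12.6 and 13.2 CPM in lung and 0.217 to 4.88 CPM elsewhere.

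Notch signalling, through which vessels choose arterial fate, had 5 of 13 genes higher (6, 5 and 5 without replicate 1 of kidney, lung and spleen) and none lower. The ligands Jag2 (111 and 126 CPM in lung against 7.07 to 32.8 CPM) and Dll4 (40.3 and 37.0 against 4.97 to 13.1 CPM), the endothelial receptor Notch4 (122 and 114 against 16.7 to 28.3 CPM) and the target Hey1 (12.3 and 13.1 against 1.74 to 3.51 CPM) passed against each organ. Notch1, Notch3, Jag1 and Rbpj did not pass.

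Regulators of vessel tone gave 16 of 21 genes higher (17, 14 and 16 without replicate 1 of kidney, lung and spleen) and 1 lower, with a median log2 of 1.90. Npr3, the receptor that clears natriuretic peptides, had 112 and 125 CPM in lung, 8.37 and 13.6 in kidney, 5.40 and 5.18 in liver, and 5.44 and 4.70 in spleen (17.8-fold, log2 4.16 ± 0.16, edgeR adjusted p = 1.12e-08). Ace, which converts angiotensin I on the lung endothelium, had 86.8 and 82.1 CPM against 3.20 to 19.1 CPM (log2 3.31 ± 0.15). Lung lay above all other libraries in both. Pde3a, a phosphodiesterase of cyclic nucleotides in vascular muscle, had 272 and 280 CPM against 17.1 to 50.7 CPM (8.94-fold). The enzymes of prostacyclin synthesis, Ptgs1 and Ptgis, and the nitric oxide synthase Nos3 passed against each organ at log2 2.08, 2.01 and 1.98. Agtr1a, the angiotensin II receptor, was the lower member with 6.79 and 9.53 CPM in lung and 14.4 to 51.4 CPM elsewhere (log2 -1.70 ± 0.21). Ptgs2, the inducible cyclooxygenase, had 0.0167 CPM in lung replicate 1 and 1.29 CPM in lung replicate 2, and did not pass.

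Connective tissue genes were higher as well, though fewer of them against each organ. Of 18 fibroblast markers, 11 were higher, 3 of these against each organ, with a median log2 of 1.46. The 11 became 12, 7 and 11 without replicate 1 of kidney, lung and spleen. Eln, the elastin of alveolar walls and arteries, had 171 and 165 CPM in lung against 8.59 to 41.2 CPM (8.17-fold, log2 3.03 ± 0.13). Fgf10, the mesenchymal signal for airway branching, was near 0 in liver and spleen, and its 17.5 and 14.3 CPM in lung overlapped the 16.0 and 7.23 CPM of kidney. Col1a1, a chain of fibrillar collagen, had 30.5 and 26.1 CPM in lung against 3.81 to 17.3 CPM (log2 1.85 ± 0.20) and did not pass against spleen. Pdgfra and Tcf21 did not pass (edgeR adjusted p = 0.116 and 0.0609).

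Of 12 smooth muscle and pericyte markers, 7 were higher (7, 6 and 7 without replicate 1 of kidney, lung and spleen), 5 of these against each organ, among them the cation channel Trpc6 (17.9 and 16.9 against 0.341 to 7.42 CPM) and the muscle protein Lmod1 (21.5 and 21.6 against 1.90 to 9.99 CPM). Acta2, smooth muscle actin, did not pass with 3.40 and 3.12 CPM in lung and 0.436 to 5.16 CPM elsewhere. Summed levels were 618 and 582 CPM in lung against 170 to 395 CPM for fibroblasts, and 278 and 251 CPM against 43.1 to 169 CPM for smooth muscle.

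Of 28 genes of elastic fibres and basement membrane, 15 were higher (17, 11 and 15 without replicate 1 of kidney, lung and spleen) and 1 lower (1, 0 and 1), with a median log2 of 1.20. Besides Eln, the leading members were the microfibril proteins Mfap4 (3.03 and 2.82 CPM against 0.188 to 0.761 CPM) and Mfap5 (log2 2.75 ± 0.56). Nid2, a basement membrane linker, was lower (33.3 and 34.2 against 49.2 to 96.7 CPM), while its relative Nid1 was higher against each organ (163 and 143 against 27.3 to 54.5 CPM). The basement membrane collagens Col4a3 and Col4a4 did not pass by TS repair (log2 -0.30 and -0.21), and their RNA was higher in lung.

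Of 25 genes of BMP and TGF-beta signalling 14 were higher (14, 13 and 14 without replicate 1 of kidney, lung and spleen) and none lower. Besides Bmp5 these included Ltbp1, which holds latent TGF-beta in the matrix (137 and 141 against 15.4 to 47.1 CPM), and the endothelial co-receptor Eng (127 and 133 against 12.2 to 58.8 CPM). Of 25 Wnt genes 10 were higher (11, 7 and 9) and none lower, led by the ligands Wnt2b (17.7 and 19.6 against 0 to 1.47 CPM, log2 4.27 ± 0.61) and Wnt3a (7.04 and 7.58 against 0.721 to 2.50 CPM).

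Of 13 Hedgehog genes 6 were higher (6, 5 and 6 without replicate 1 of kidney, lung and spleen) and 3 lower (3, 1 and 3). The inhibitor Hhip (9.54 and 8.05 against 0.375 to 5.69 CPM) and the factor Gli2 (132 and 122 against 6.88 to 82.5 CPM) led the higher ones, and the ligand Ihh was lower (log2 -2.46 ± 0.29). Shh, the ligand made by airway epithelium, had 2.16 and 1.64 CPM in lung within 0.0938 to 12.5 CPM elsewhere and did not pass, whereas its RNA was higher in lung. Of 15 FGF genes 5 were higher (5, 3 and 5), led by Fgf10 and Fgf7, and Fgf9 was lower with 2.63 and 3.90 CPM in lung, close to the 4.69 and 2.45 CPM of spleen and far under the 117 and 93.0 CPM of kidney.

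Axon guidance genes, many of which also guide vessels, gave 19 of 29 higher (20, 17 and 19 without replicate 1 of kidney, lung and spleen) and 2 lower (2, 1 and 2), with a median log2 of 1.19. Sema3e and Sema3g, secreted semaphorins, were higher against each organ (17.4 and 14.6 against 0.491 to 5.69 CPM, and 38.0 and 39.0 against 0.903 to 10.7 CPM). Sema3c had 106 and 111 CPM in lung but 107 and 78.3 CPM in kidney. Slit1 was lower against each organ with 2.33 and 4.25 CPM in lung and 7.66 to 72.0 CPM elsewhere (6.30-fold lower, log2 -2.66 ± 0.27). Its relatives Slit2 and Slit3 were higher (log2 2.30 and 2.15).

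The epithelial markers of the lung differed from list to list. Over all genes tested, 8.65% were higher and 9.18% lower by TS repair. Of 13 type 2 cell markers tested, 1 was higher (2, 1 and 1 without replicate 1 of kidney, lung and spleen) and 1 lower, with a median log2 of -0.08 that became 0.61 without spleen replicate 1. Sftpc had 1.42 and 0.610 CPM in lung (85 and 26 reads) and 0 to 0.398 CPM elsewhere, and did not pass (log2 4.28 ± 1.48, edgeR adjusted p = 0.0785). Sftpb, another surfactant protein, had 1.02 and 1.45 CPM in lung within 0.546 to 1.90 CPM elsewhere. Sftpa1 had 0.234 and 0.188 CPM in lung and 6.14 and 5.96 CPM in liver. RNA of these genes was among the most abundant in lung, with 17661 and 14243 CPM for Sftpc, 2959 and 2521 CPM for Sftpb, and 3680 and 3227 CPM for Sftpa1. Adducts were present on the TS of Sftpc, which had 2.63 and 2.15 CPM of Damage-seq reads in lung and 0.905 to 6.36 CPM elsewhere.

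The higher type 2 marker was Lpcat1, an enzyme of surfactant lipid synthesis, whose 209 and 210 CPM in lung equalled the 195 and 210 CPM of spleen. The lower was Ctsh, the protease that processes surfactant proteins, with 9.0 and 10.2 CPM in lung, 57.9 and 57.7 in kidney, 29.4 and 34.8 in liver, and 31.7 and 34.3 in spleen. Its lung level was 4.11-fold lower (log2 -2.04 ± 0.16, edgeR adjusted p = 3.27e-06) and lay below every other library. Ctsh RNA did not differ by the test (log2 -0.08). Abca3, the lipid transporter of lamellar bodies, had 188 and 187 CPM in lung within 181 to 215 CPM elsewhere, and with Lpcat1 it made up most of the summed type 2 level of 483 and 492 CPM.

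Type 1 cell markers gave 6 of 12 higher and 1 lower, with a median log2 of 1.16, close to the 1.20 of the elastic fibre genes. The 6 became 7, 3 and 6 without replicate 1 of kidney, lung and spleen, and 2 without lung replicate 2. Clic5, a chloride channel protein that glomeruli and endothelium also make, passed against each organ with 184 and 180 CPM in lung and 7.34 to 109 CPM elsewhere (log2 2.37 ± 0.11). Ager, the receptor RAGE of type 1 cells, had 16.3 and 15.7 CPM in lung and 18.5 and 17.7 CPM in spleen (log2 0.71 ± 0.24, edgeR adjusted p = 0.165), while its RNA was 2948 and 2163 CPM in lung and 1.06 to 7.72 CPM elsewhere. Akap5, an anchor of protein kinase A, was lower by TS repair (3.18 and 2.04 against 3.62 to 15.7 CPM) and higher by RNA.

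Among club cell markers none of 7 tested was higher and 1 of them, the tight junction protein Cldn10, was lower by edgeR's test (2.51 and 2.39 CPM against 1.74 to 90.1 CPM). All 11 listed markers were under 5 CPM of TS repair in both lung libraries on average. Of all 19736 genes tested, 12417 were at 5 CPM or more in lung. The median gene length was 6.34 kb in the list and 21.3 kb over all genes tested. The sum of the 11 markers was 7.46 and 7.30 CPM in lung and 7.32 to 93.1 CPM elsewhere. By RNA all 11 markers were higher, beside 23.2% of all genes tested by RNA, with a sum of 52026 and 65358 CPM in lung. Scgb1a1, the main club cell secretory protein, had 0 and 0.0939 CPM of TS repair (0 and 4 reads) at 41377 and 52800 CPM of RNA.

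Among 15 ciliated cell markers tested 1 was higher (3, 1 and 1 without replicate 1 of kidney, lung and spleen), Tppp3, a microtubule protein (25.2 and 24.3 against 2.86 to 13.4 CPM). Foxj1, the master factor of motile cilia, had 1.66 and 0.915 CPM in lung and 0.588 to 4.50 CPM elsewhere (log2 -0.70 ± 0.65). All 16 listed ciliated markers were higher in lung by RNA, beside 23.2% of all genes tested by RNA. By TS repair 8.65% of all genes tested were higher.

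Both lung libraries lay above all 6 others in TS repair for 3 of 14 type 2, 2 of 12 type 1, 1 of 11 club and 4 of 16 ciliated markers, and for 18 of 22 endothelial, 6 of 10 capillary, 11 of 18 fibroblast and 7 of 12 smooth muscle markers. By RNA the same held for 12, 11, 10 and 16 of the epithelial markers and for 21, 8, 13 and 9 of the others. Over all genes tested the shares were 12% by TS repair and 22.1% by RNA. In the other organs, both libraries of the own organ lay above the rest in TS repair for 14 of 16 hepatocyte genes in liver, 13 of 16 tubule and glomerulus genes in kidney and 10 of 11 B cell genes in spleen, beside 15.8%, 16% and 11.5% of all genes tested. The part that the shares of cell types play in these counts was not tested.

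Fluid and ion transport, by which the alveolus is kept dry, gave 3 of 14 genes higher (5, 2 and 3 without replicate 1 of kidney, lung and spleen) and 2 lower. Aqp1, the water channel of vessels, was higher against each organ (35.8 and 40.0 against 3.68 to 17.5 CPM), as was Adrb1, a beta-adrenergic receptor, against the mean (17.5 and 19.6 against 0.796 to 12.1 CPM). Atp1b1, the beta subunit of the sodium pump, was lower against each organ, with 6.51 and 6.05 CPM in lung and 22.0 to 70.8 CPM elsewhere (5.53-fold lower, log2 -2.47 ± 0.18). Its RNA was higher in lung (log2 1.22). The subunits of the epithelial sodium channel differed, with Scnn1b higher (log2 1.21 ± 0.32) and Scnn1a lower (log2 -1.38 ± 0.17), and RNA of both was higher in lung. Of 16 genes of surfactant lipid synthesis only Lpcat1 was higher and 2 were lower, beside 8.65% and 9.18% of all genes tested. Elovl6, which elongates palmitate, was among the lower ones (57.6 and 62.3 against 99.1 to 246 CPM).

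Markers of other cells that a lung sample can hold were mostly not higher. None of 8 alveolar macrophage, 11 macrophage and monocyte, 5 neutrophil, 6 cardiac muscle, 5 adipocyte and 3 high endothelial venule markers passed in either direction by edgeR. Without kidney replicate 1, 1 alveolar macrophage, 1 macrophage and monocyte and 1 cardiac marker were higher, and 1 cardiac and 1 adipocyte marker lower. Marco, a scavenger receptor, had 2.58 and 1.69 CPM in lung and 5.72 and 4.36 CPM in spleen, and Chil3, a chitinase-like protein of alveolar macrophages, had 1.07 and 1.15 CPM in lung and 0 to 0.491 CPM elsewhere (edgeR adjusted p = 0.0514). The 8 cardiac markers were higher in lung by RNA, beside 23.2% of all genes tested by RNA. Their summed TS level was 40.5 and 39.8 CPM in lung and 35.9 to 60.8 CPM elsewhere. Of 6 mesothelial markers Upk1b, a uroplakin, was higher (9.50 and 7.74 against 0 to 1.24 CPM) and Wt1 was lower. Of 12 T and NK cell markers Cd2 was higher than the mean, below its 27.0 and 24.7 CPM in spleen. Of 11 B cell markers 3 were lower, and 7, 1 and 2 without replicate 1 of kidney, lung and spleen. The list summed to 18.8 and 15.8 CPM in lung and 369 and 424 CPM in spleen, and erythroid markers to 7.14 and 8.21 CPM in lung and 16.5 to 35.2 CPM elsewhere, with the red cell factor Klf1 lower against each organ (0.652 and 1.13 against 2.44 to 21.5 CPM).

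Of 19 cytochrome P450 and flavin monooxygenase genes, which metabolise foreign compounds, 6 were higher (7, 5 and 5 without replicate 1 of kidney, lung and spleen) and 3 lower (3, 0 and 2), and the 3 became 1 when all libraries were thinned to the shallowest. Cyp4b1, a lung P450 that activates furans, was higher against each organ (36.6 and 36.7 against 2.87 to 19.0 CPM, 5.87-fold). Fmo2, the main flavin monooxygenase of lung, had 29.1 and 27.8 CPM, equal to the 29.4 and 25.6 CPM of liver. Cyp2f2 of club cells had 1.22 and 1.81 CPM in lung and 19.7 and 24.7 CPM in liver, at an RNA level of 2480 and 3419 CPM in lung. Cyp3a11, a hepatic P450, had no TS read in lung.

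Next are genes that were lower than each organ and furthest below the mean. Among them Slc22a30, an organic anion transporter, had no TS read in either lung library and 0.231 to 18.3 CPM elsewhere (edgeR adjusted p = 0.000143). At a floor of 3 reads over the lung libraries, this was at least 208-fold below the arithmetic mean CPM of the other organs. The fold against its lowest other library, with 0.231 CPM, was smaller. Rdh16f2, a retinol dehydrogenase relative, had 0 and 0.0235 CPM in lung and 0.231 to 10.8 CPM elsewhere. Lung was the lowest organ in both.

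Plppr1, a phospholipid phosphatase relative, had 0.0167 and 0.704 CPM in lung and 5.16 to 225 CPM elsewhere (log2 -6.21 ± 0.61). Timd2, a ferritin receptor of liver and kidney, had 0.0167 and 0.305 CPM in lung and 3.52 to 33.0 CPM elsewhere (log2 -6.05 ± 0.66). Pck1, the enzyme that commits carbon to gluconeogenesis, had 0.0167 and 0.164 CPM in lung and 0.577 to 20.6 CPM elsewhere (log2 -5.99 ± 0.88). These lung values rest on 1 read in replicate 1 and 30, 13 and 7 reads in replicate 2. Nr0b2, a repressor of bile acid synthesis, and Sectm1a, a small secreted and membrane protein, had 0 and 0.0939 CPM in lung each, and Nr0b2 also had 0 CPM in kidney replicate 1. RNA of these 7 genes was lower in lung too.

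Of 16 hepatocyte genes 8 were lower and none higher, with a sum of 5.57 and 4.25 CPM in lung and 315 and 346 CPM in liver. Alb, serum albumin, had 0 and 0.141 CPM in lung and 9.99 and 20.2 CPM in liver (edgeR adjusted p = 0.0445), and Fgb, a fibrinogen chain, had no TS read in lung. Hnf4a, a factor of liver and kidney identity, had 3.31 and 1.99 CPM in lung, close to spleen (3.47 and 1.36 CPM), and 46.2 to 114 CPM in kidney and liver. Of 15 tubule and glomerulus genes 7 were lower, among them Slc12a3, the thiazide-sensitive salt transporter, against each organ (7.41 and 3.07 against 13.9 to 36.2 CPM). Slc34a1, the proximal tubule phosphate carrier, was lower against the mean (log2 -1.80, edgeR adjusted p = 0.0172). The list summed to 24.7 and 26.8 CPM in lung and 694 and 644 CPM in kidney. Without replicate 1 of kidney, lung and spleen, the 8 became 11, 5 and 8 and the 7 became 9, 5 and 6.

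Of 15 genes of the urea cycle, gluconeogenesis and amino acid breakdown 6 were lower (8, 6 and 6 without replicate 1 of kidney, lung and spleen) and 1 was higher. Hgd and Hpd, of tyrosine breakdown, were lower (log2 -2.67 ± 0.23 and -2.64 ± 0.54). The higher gene was Otc, a urea cycle enzyme, with 9.94 and 11.2 CPM in lung, 21.8 and 24.0 CPM in liver and 0.0938 to 1.15 CPM in kidney and spleen. Otc RNA in lung was 0.930 and 1.02 CPM. Of 16 genes of fatty acid oxidation none was higher and 1 was lower by TS repair, with a median log2 of 0.37. By RNA 14 of 16 were lower in lung, beside 14% of all genes tested by RNA.

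Among genes that every organ uses, none of 29 excision repair factors passed in either direction by edgeR's test, with a median log2 of 0.13 and a summed level of 1866 and 1893 CPM in lung and 1646 to 1867 CPM elsewhere. Xpc, the damage sensor of global repair, had 99.9 and 91.8 CPM in lung within 85.9 to 113 CPM, and Ercc6, the CSB protein of transcription-coupled repair, 129 and 137 CPM within 115 to 158 CPM. None of 29 cytosolic ribosomal protein genes passed by edgeR, though their summed level ranged from 179 and 182 CPM in liver to 432 and 510 CPM in kidney, with 321 and 348 CPM in lung. Of 24 proteasome genes 3 were higher (3, 0 and 2 without replicate 1 of kidney, lung and spleen), and 1 under TMM scaling and 0 with DESeq2. Their sum was 987 and 1042 CPM in lung, 455 and 503 CPM in liver and 882 and 1045 CPM in kidney.

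Few stress and rhythm genes passed, in shares not far from the 8.65% higher and 9.18% lower among all genes tested. Of 19 p53 targets 2 were higher (2, 0 and 2 without replicate 1 of kidney, lung and spleen). They were Fas, a death receptor (67.2 and 63.6 against 19.9 to 56.8 CPM), and Pmaip1, which promotes apoptosis (10.7 and 13.0 CPM in lung within 0.759 to 18.7 CPM elsewhere). The log2 difference of Pmaip1 was 1.19 against the mean and turned to -0.06 without liver, where it was lowest. Cdkn1a, the cell cycle inhibitor p21, had 66.4 and 50.2 CPM in lung, between 86.4 and 93.7 CPM in kidney and 22.1 and 23.6 CPM in spleen, and did not pass (edgeR adjusted p = 0.623). Of 25 immediate-early genes, which summed to 536 and 537 CPM in lung, 949 and 995 CPM in kidney and 397 to 460 CPM in liver and spleen, Klf4 was higher (the count was 0 without either lung library) and Egr1 and Myc were lower (9.35 and 7.91 against 14.5 to 72.6 CPM for Egr1, and 8.72 and 7.79 against 18.5 to 29.7 CPM for Myc). Of 18 clock genes 2 were lower (2, 2 and 1), among them Dbp, an output factor of the clock, and Per1 did not pass (107 and 110 CPM in lung within 42.2 to 146 CPM). Of 20 interferon-stimulated genes 3 were higher (5, 2 and 3), with Oasl2 at 45.8 and 39.6 CPM in lung and 7.34 to 26.8 CPM elsewhere. Of 14 glucocorticoid-induced genes only Zbtb16, a zinc finger repressor, was higher (626 and 620 against 208 to 564 CPM).

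RNA gave an independent measure of the same genes in cisplatin-treated mice. Of 17895 genes tested by RNA, 4153 (23.2%) were higher and 2513 (14%) lower in lung than the mean of the other organs, and 9.23% and 1.56% than each organ. Scaling to the total of reads in place of TMM moved the median RNA log2 over all genes from -0.03 to 0.46 and gave 5421 higher and 1241 lower. The calls by RNA are relative to the TMM scale. Of the 1678 genes higher by TS repair that RNA also tested, 1219 (72.6%) were higher by RNA and 28 were lower, and those 1219 were 30.6% of the 3989 genes higher by RNA. Of 1732 genes lower by TS repair 703 (40.6%) were lower by RNA and 237 (13.7%) higher. Among the 13564 genes with no TS call 18.7% were higher and 13% lower by RNA. Of the genes higher by TS repair than in each organ, 391 of 436 (89.7%) were higher by RNA, with a median RNA log2 of 2.73. Of those lower than in each organ, 199 of 350 (56.9%) were lower by RNA.

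**Figure D4:**
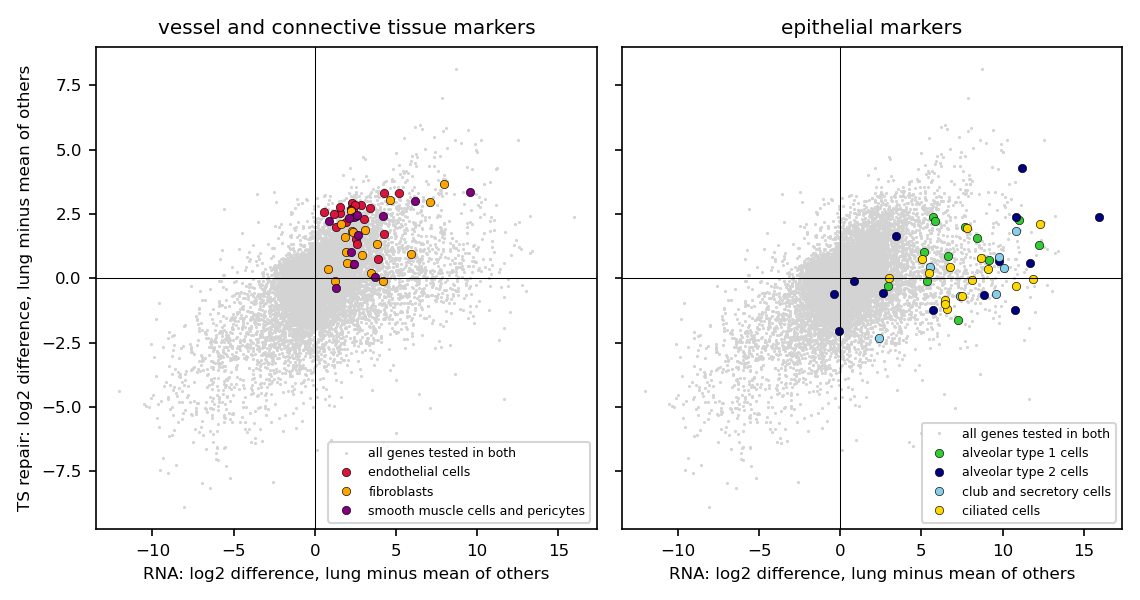
Log2 difference between lung and the mean of the other organs by RNA (x axis) and by TS repair (y axis), with all genes tested in both in grey, vessel and connective tissue markers coloured on the left and epithelial markers on the right. Most vessel and connective tissue markers lie above 0 on both axes, and the epithelial markers spread to the right on both sides of a TS difference of 0.

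Among the 28 genes that were higher by TS repair and lower by RNA, Ehd3, an endosomal ATPase, had the largest TS difference (96.9 and 84.4 CPM in lung, 69.2 to 87.3 CPM in spleen and 9.55 to 28.0 CPM in kidney and liver). By TS repair Rapgef4, a cyclic AMP-regulated exchange factor, was higher against each organ (280 and 284 against 92.1 to 168 CPM) at an RNA log2 of -1.67. Antisense transcripts are annotated across Rapgef4. Vav3 and Cyba, a guanine nucleotide exchange factor and a subunit of the phagocyte oxidase, followed, and both were as high in spleen as in lung. In the opposite direction, Rsph4a, a radial spoke protein of cilia, had 0 and 0.0469 CPM of TS repair in lung, 7.40 and 6.51 CPM in liver, and an RNA log2 of 7.09. Ccdc151, which docks ciliary dynein arms, had 0.268 and 0.915 CPM in lung, 26.8 and 30.4 CPM in liver, and an RNA log2 of 4.63. Rnf186 and Zfp750 completed the 4 and had RNA differences of 1.20 each. All 4 were low in spleen as well, with at most 2.16 CPM.

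NTS repair differed in fewer genes upward. Of 19637 genes tested, 326 (1.66%) were higher and 1443 (7.35%) lower in lung than the mean, and 49 (0.25%) and 116 (0.591%) than each organ. Since lung has the larger TS share, the median log2 over all genes was -0.52, and under TMM scaling the split was 817 higher and 394 lower. Of the 320 genes with more NTS reads that the TS comparison also tested, 140 were higher on the TS and 13 lower. Of the 1435 with fewer, 474 were lower on the TS and 28 higher. Both strands come from the same libraries. Genes higher than in each organ by TS repair had a median NTS log2 of 0.60. Ccdc85a was higher against each organ on both strands, with 7.13 and 6.52 CPM of NTS reads in lung and 0.433 to 1.50 CPM elsewhere. Tbx5 and Slc24a4 passed against the mean (log2 2.85 ± 0.60 and 1.50 ± 0.25), while Cdh5 did not (2.66 and 3.12 CPM in lung, 0 to 3.28 CPM elsewhere).

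The largest upward NTS differences were those of Mir1941, a microRNA gene inside Krt80 on the opposite strand (1.04 and 0.680 against 0 to 0.0358 CPM), Cst8, a cystatin (2.51 and 1.22 against 0 to 0.394 CPM), and Cpa3, a mast cell protease, which spleen shared (2.43 and 2.51 CPM in lung, 2.06 and 1.53 CPM in spleen). The largest downward ones were Baat, St8sia3 and Rdh7, which had no NTS read in lung and also 0 in at least 1 other library. Baat and Rdh7 are liver enzymes of bile acid conjugation and of retinoid and steroid oxidation.

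Adducts that remained on the TS were compared next. Per the paper's methods, chromatin pellets from the XR-seq preparation were kept for Damage-seq, so both assays can share tissue. By Damage-seq none of 19797 genes was higher in lung and 19 (0.096%) were lower in the edgeR test, 2 of them (0.0101%) than each organ, while 398 and 532 had an unadjusted p under 0.05 in the 2 directions, and DESeq2 called 0 and 1. The comparisons with single organs differed, with 26 genes higher (0.131%) and 957 lower (4.83%) in lung than in kidney, 402 higher (2.03%) and 36 lower (0.182%) than in liver, and 0 and 8 (0.0404%) than in spleen. All 19 genes lower than the mean had more TS repair reads in lung, beside 8.65% of all genes tested. Of these, 13 had more against each organ, beside 2.22%. Cavin1, a coat protein of endothelial caveolae, had 1.69 and 3.63 CPM of damage reads in lung, 15.1 and 14.7 in kidney, 7.18 and 10.2 in liver, and 8.27 and 9.05 in spleen (log2 -1.92 ± 0.32, edgeR adjusted p = 0.00504). Arhgef2, a microtubule-bound guanine nucleotide exchange factor, had 8.26 and 10.4 CPM in lung and 22.3 to 39.7 CPM elsewhere (log2 -1.61 ± 0.20). Tgfb1i1, a focal adhesion protein of smooth muscle, had 1.31 and 4.79 CPM in lung and 6.69 to 14.6 CPM elsewhere. Lung was lowest in all 3, and their TS repair was 2.83-fold, 2.24-fold and 3.01-fold higher in lung.

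Over whole groups, the median damage log2 was -0.19 for the genes with more TS repair in lung, -0.31 for those higher than in each organ, 0.11 and 0.16 for the lower genes, and 0.02 over all genes. For endothelial markers it was -0.40 and for type 2 markers 0.09. Cdh5 had 13.5 and 14.5 CPM of damage reads in lung and 20.9 to 29.4 CPM elsewhere, but did not pass (edgeR adjusted p = 0.387). Damage-seq held between 1571167 and 6441367 reads on genes per library, fewer than XR-seq.

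**Figure D5:**
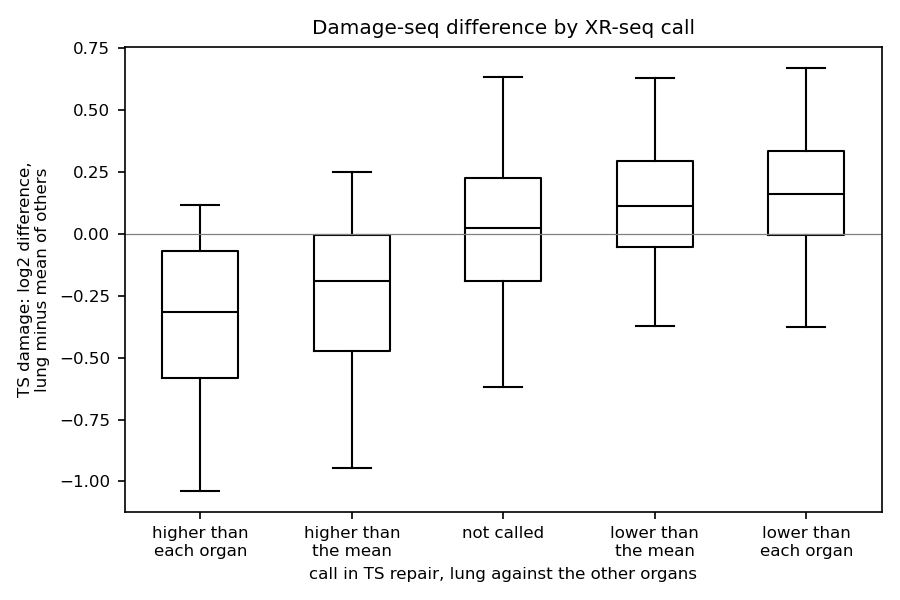
Log2 difference of TS damage reads between lung and the mean of the other organs, for genes higher by TS repair than each organ or than the mean, not called, and lower than the mean or than each organ. Boxes give quartiles and medians, whiskers leave out the lowest 5% and the highest 5% of genes, and the medians are -0.31, -0.19, 0.02, 0.11 and 0.16 from left to right.

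Genes called in either direction were longer than the genes tested as a whole. The median length was 42.8 kb for the higher genes, 35.8 kb for the lower ones and 21.3 kb for all genes tested, and 27.1%, 23.6% and 12.8% exceeded 100 kb. The density of GG on the TS was 63.0, 61.6 and 60.0 per kb. The median TS level in lung was 56.1, 4.65 and 15.1 CPM. The part that read number plays in the length of called genes was not tested. Together the 1708 higher genes took 18.0% and 17.6% of all TS reads in lung and 6.42% to 10.3% in the other libraries. The 1811 lower genes took 4.02% and 3.98% in lung and 8.83% to 15.6% elsewhere.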

How the data were processed

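The authors used cutadapt for adaptors, BWA for alignment to mm10 and Picard for deduplication of XR-seq and Damage-seq reads, kept reads with GG at the adduct position, and made a count per gene and strand. RNA-seq was aligned with STAR and counted with featureCounts. Versions are not given in the sources used here. The deposited files hold whole-number counts per gene, which were used as deposited. TS counts were scaled to each library's TS plus NTS total without further factors. RNA log2 differences and calls used TMM, whereas printed RNA levels in CPM were scaled to each library's total of reads on genes. Genes were joined on identifiers present in all files, and positions came from GENCODE M21. Lung was compared with the mean of the log2 levels of kidney, liver and spleen, and with each organ, by edgeR 4.0.16 (quasi-likelihood fit, test against a log2 difference of 0.4, Benjamini-Hochberg adjusted p under 0.05) in R 4.3.3. The contrasts share the lung libraries. CPM values are shown with the number of libraries, and floors cover counting error only. Each SE comes from edgeR's quasi-likelihood fit and includes the spread between replicates that the fit estimates. The methods were tested on simulated counts in which only a small set of well-covered genes differed in lung. An excess of empty genes in replicate 1 was not simulated, so that test cannot show its effect on the calls.

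Named genes are the 12 highest and 8 lowest of those past the test against each organ with a mean of at least 1 CPM and no predicted gene model, fixed anchor genes, up to 4 genes per list, 4 genes in each direction with opposite TS and RNA calls, and 3 with the largest difference each way on the NTS and in TS damage. Other named genes were chosen after their values were seen. The members and the 43 gene lists were chosen with earlier results of these data known. Of the listed symbols 5 had no match. Alternatives were another scaling, filter, threshold or tool (DESeq2 1.42.0), a replicate block, gene length and GG limits, leaving out each library or organ, and, chosen after seeing the data, thinning to the shallowest library. The paper calls the replicates biological and does not say that each is a separate mouse. A chi-square index of the spread between replicate counts was 2.75 and 2.98 in control RNA of lung and spleen. It was 39.3 to 349 in the other RNA pairs, and the reason was not tested. Lung and spleen RNA labels were corrected by the submitters after deposit, and the corrected labels were used. Some genes that these rules name are not reported here.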

Additional observations from a re-analysis of the deposited data

How the results depend on the processing

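The counts moved most with the threshold and with the organs compared. Tested against no difference, 3950 genes were higher and 2838 lower by TS repair, 562 of them lower than each organ. With a log2 threshold of 1 the counts were 823 higher and 859 lower, and 189 and 136 against each organ. Without kidney they were 3317 and 2736. Leaving out each library in turn gave 1150 to 2769 higher and 1118 to 2348 lower genes, and 287 to 551 and 222 to 479 against each organ. Among genes under 100 kb with at least 10 GG, 276 were higher than each organ. Other scalings gave 1513 and 2043 (TMM), 1538 and 1963 (TS total) and 1246 and 1909 (DESeq2). The share of higher calls thus depends on the scaling, and the median log2 over the genes tested was 0.06 as reported, then -0.02, -0.00 and -0.04. With thinned libraries, chosen after seeing the data, 1718 were higher and 1723 lower.

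For the NTS, TMM gave 817 higher and 394 lower genes and DESeq2 682 and 445. Leaving out each library gave 72 to 1123 and 254 to 2521. For RNA the same gave 3085 to 4884 higher and 1047 to 3525 lower. Scaling to the total gave 5421 higher and 1241 lower, and control libraries 3026 and 1179. The chi-square index of replicate spread was 2.75 and 2.98 in control RNA of lung and spleen. It was 89.4 and 134 in their cisplatin RNA. The control counts are therefore no like-for-like comparison with the 4153 higher and 2513 lower genes of cisplatin RNA. Damage gave 0 to 1 higher and 6 to 30 lower without 1 library, and 1 lower with DESeq2. The cause of these changes was not tested.

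Log2 TS differences changed sign for some genes, of which Pmaip1, Efna5 and Pax5 had passed. Without kidney they were 1.07 for Col4a3, 1.33 for Col4a4, 0.015 for Ercc6, -0.32 for Marco and 1.13 for Ptgs2. Without liver they were -0.076 for Apln, 1.03 for Cyp2f2, 0.24 for Efna5, -0.044 for Marco, -0.15 for Per1, -0.060 for Pmaip1, 0.19 for Shh and 0.46 for Vegfd. Without spleen they were -0.10 for Cdkn1a, 0.040 for Pax5 and 0.049 for Xpc, and thinning gave 0.036 for Xpc. Leaving out each library in turn gave -0.35 to 2.80 for Cpa3, -1.04 to 1.68 for Cyp2f2, -0.17 to 0.55 for Marco, -5.08 to 0.91 for Ptgs2, -1.65 to 1.18 for Sftpa1, -0.32 to 0.034 for Vegfd and -0.083 to 0.039 for Xpc.

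Deviations of same-numbered libraries correlated at -0.104 to 0.079 between organs over 16314 genes, and the main fits did not pair them. These correlations cannot tell whether same-numbered libraries shared a mouse or a batch. Empty genes were more frequent in replicate 1 of kidney, lung and spleen. With a replicate block 1702 genes were higher and 1780 lower by TS repair, 436 and 347 against each organ, 326 and 1422 on the NTS, 3909 and 2208 by RNA and 0 and 20 by damage. Spleen replicate 1 and kidney replicate 1 are the shallowest XR-seq libraries, and genes with few reads there limit what can be told.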

Other observations

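Sftpb had more NTS than TS repair reads in lung, with 10.7 and 11.3 CPM on the NTS and 1.02 and 1.45 CPM on the TS. The same held in the 6 other libraries, in which the NTS level was at most 17.6 CPM.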
